A study of Mus musculus with 132 samples.

Results

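Cells of control mouse embryos were compared between the 8-cell stage (embryonic day 2.5) and the 32-cell stage (embryonic day 3.5), to describe which genes and pathways were switched on or off between the precursor of the morula and the blastocyst. All cells whose labels give a control treatment were taken, 30 from the 8-cell and 39 from the 32-cell stage, that is 69 of the 132 cells of the series. The embryos came from C57BL/6 x DBA F1 crosses (C57BL/6NCrl and DBA/2NHsd in the study's methods) and were cultured in KSOM medium with a scrambled negative control mimic, a double-stranded RNA with no intended target, from the 2-cell stage on (embryonic day 1.5). The labels give 5 or 10 µM without a dose for each cell, and the study's text ties 10 µM to the 8-cell and 5 µM to the 32-cell embryos, so dose and stage cannot be told apart. The other 63 cells came from embryos given a mimic of miR-381-3p and collected at these stages, and enter only the side comparison near the end.

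Each cell was sequenced with Smart-seq2, which reads polyadenylated RNA along the whole transcript and has no molecular identifiers. The labels do not tie cells to embryos, and the study took 3 to 5 embryos for each group and stage, so the cells of a stage were treated as 1 sample and no test between stages was possible. Intervals printed below are exact 95% Poisson intervals on pooled counts. They cover counting error only, not differences between embryos, and several reads may stem from 1 molecule. Total counts per cell ranged from 544866 to 2334697 (median 1232013) at the 8-cell stage and from 578979 to 3461022 (median 1339189) at the 32-cell stage. Between 6373 and 7366 genes had a count in an 8-cell cell, and between 5988 and 8174 in a 32-cell cell. Values are counts scaled to a total of 1000000 per cell or per stage (CPM), mitochondrial genes left out, and so are relative: less RNA of a gene and more RNA of all others cannot be told apart.

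The 8-cell embryo begins to compact, its cells flattening against each other through E-cadherin and gaining an apical and a basal side. In the days that follow, outer cells form the trophectoderm, an epithelium sealed by tight junctions and desmosomes that pumps fluid into the blastocoel, while inner cells form the inner cell mass. Over the same days the store of egg transcripts is used up, and the embryo shifts from pyruvate towards glucose as fuel.

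Marker genes were first set against the stage labels. Gata3, a transcription factor of the trophectoderm, was at 76.7 CPM (95% interval 73.9 to 79.6) in 8-cell and 1536 CPM (1526 to 1546) in 32-cell cells, a 20.0-fold difference. Its CPM per cell ran from 0 over a median of 37.1 to 337 at the 8-cell stage and from 78.8 over 753 to 3899 at the 32-cell stage, so the stages overlapped only at their edges. Cdx2, which drives trophectoderm fate, had a count in 7 of 30 and 34 of 39 cells and went from 10.2 to 148.3 CPM, and Eomes, a T-box factor of the same lineage, from 3.95 to 23.7 CPM. Among the genes of the inner cell mass, Sox2 had no count in any 8-cell cell and 20.6 CPM at the 32-cell stage, at least 252-fold higher against the 3 counts that a count of 0 allows over a stage (0.0817 CPM at the 8-cell and 0.0527 CPM at the 32-cell stage). Gdf3, a TGF-beta family ligand, was 5.88-fold higher at 60.5 CPM. Nanog was at 100 CPM in 8-cell and 391 CPM in 32-cell cells, just short of the 4-fold call used below. The Nodal co-receptor gene Tdgf1 was not called (504 and 249 CPM), and Fgf4, the ligand of the inner cell mass, stayed low in both stages (9.66 and 7.14 CPM). Of the cleavage and egg transcripts, Obox6 was at 1916 CPM in 8-cell and 7.77 CPM in 32-cell cells. Zp3, which encodes a protein of the egg coat, was at 66.7 and 0.404 CPM, while Gdf9 and Oosp1 were at 10.5 and 0.626 CPM at the 8-cell stage and without a count at the 32-cell stage.

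Other differences lay beside the stage. In each of the 39 32-cell cells there were more counts of the Y-linked genes Ddx3y, Eif2s3y, Uty and Kdm5d together than of Xist, the RNA that silences an X chromosome in female cells, against 7 of 30 8-cell cells. Y-linked CPM per cell ran from 88.7 to 1194 (median 467) at the 32-cell stage and from 0 to 571 (median 0) at the 8-cell stage. Cell titles end in a letter that differs between the stages, and a batch that this letter may mark cannot be told apart from the stage. The numbers in the titles form separate runs: 1 to 14 (14 cells), 16 to 30 (14 cells) and 87 to 88 (2 cells) at the 8-cell stage, and 63 to 86 (24 cells) and a later run (15 cells) at the 32-cell stage. Of 194 named genes past a 4-fold difference, 122 moved by over 1.5-fold when only 1 run, the 8-cell cells other than 87 and 88 or the 7 cells with Y-linked counts above Xist were used, and 1, Xist, changed sign. Values by run are given for some of them below.

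A gene entered the comparison when its pooled CPM was at least 20 in either stage, which 7469 genes met. It was called higher or lower at a 4-fold difference of CPM + 1, that is 2 on the log2 scale. The 32-cell stage was higher for 996 genes (13.3% of those tested) and lower for 546 (7.31%), and 3729 genes (49.9%) lay within 2-fold. The median log2 difference was 0.20 and the median absolute log2 difference 1.001. Between the runs 1 to 14 and 16 to 30 of the 8-cell stage the median absolute difference was 0.46, and 4.71% of genes differed 4-fold. Between the run 63 to 86 and the later run of the 32-cell stage these values were 0.35 and 2.28%. Of the 1542 called genes, 939 were called in the same direction in each of the 4 pairings of an 8-cell with a 32-cell run. The 8-cell cells 87 and 88 entered no pairing.

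**Figure D1:**
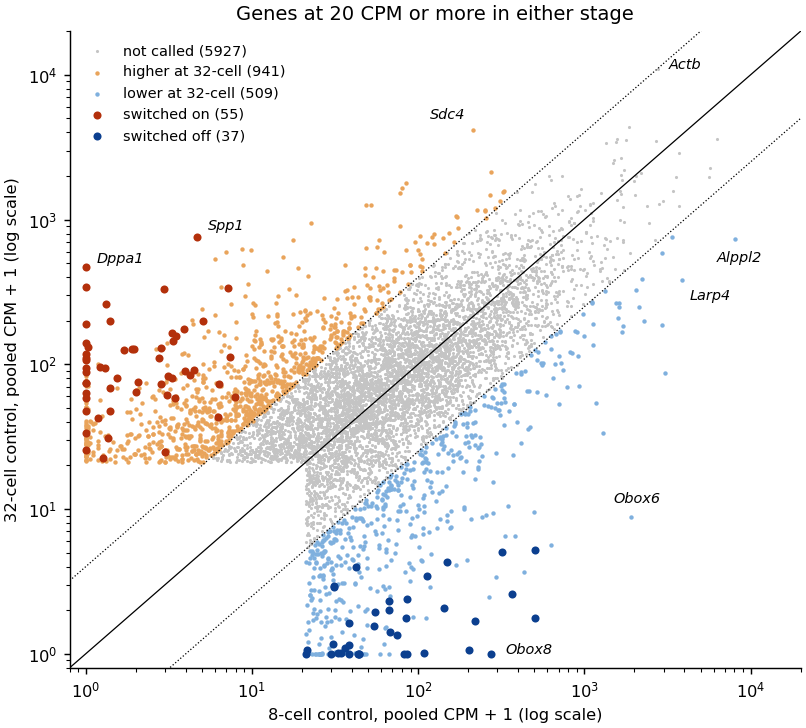
Pooled CPM + 1 of each of the 7469 genes tested, 8-cell control cells on the horizontal and 32-cell control cells on the vertical axis, both logarithmic; the solid line marks equal values and the dotted lines a 4-fold ratio of CPM + 1. Genes called higher or lower lie outside the dotted lines, and the 55 switched-on and 37 switched-off genes lie along the left and the lower edge.

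The genes with the most counts differed between the stages. At the 8-cell stage the largest share went to Alppl2, a placental-type alkaline phosphatase, at 8050 CPM (95% interval 8021 to 8079), and it was 11.0-fold lower at the 32-cell stage, with all 30 8-cell cells (5472 to 10109 CPM) above all 39 32-cell cells (65.2 to 2437 CPM). Dppa3, which protects the maternal genome from demethylation, had 5725 CPM at the 8-cell and 2286 CPM at the 32-cell stage. Larp4, which encodes an RNA-binding protein that acts on mRNA tails, was 10.2-fold lower (3881 and 381 CPM). At the 32-cell stage the largest share went to Actb, the beta-actin gene, with 2780 CPM in 8-cell and 10888 CPM in 32-cell cells. Next came Gja1, the gap junction gene for connexin 43, with 1852 and 4393 CPM, and Sdc4, which encodes the heparan sulphate proteoglycan syndecan 4. Sdc4 was 19.4-fold higher (213 and 4150 CPM), from 0 to 1373 CPM per cell at the 8-cell and from 1796 to 6484 CPM at the 32-cell stage. Hsp90ab1 and Hspa8, chaperone genes, were among the 10 genes with the most counts at both stages and were not called, with log2 differences of -0.80 and -0.37.

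A called gene was taken as switched on when at most 10% of 8-cell and at least 75% of 32-cell cells had a count, and as switched off in the mirrored case. By this description, 55 genes (0.736% of those tested) were switched on and 37 (0.495%) switched off. An 8-cell cell had counts of 0 to 5 of the 55 switched-on genes (median 2), and a 32-cell cell of 40 to 54 (median 49). Of the 37 switched-off genes, an 8-cell cell had counts of 29 to 37 (median 33) and a 32-cell cell of 0 to 6 (median 1). These ranges follow from the way the genes were chosen. Of the 92 switched genes 88 were called in each of the 4 pairings of runs. As the runs hold cells that the genes were chosen in, that count too follows in part from the choice.

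Of the switched-on genes named here, the following act at the cell surface, in the matrix or in the cytoskeleton. Spp1 (chromosome 5, 104435118 to 104441050, plus strand, mm10), which encodes the secreted integrin ligand osteopontin, had a count in 1 of 30 8-cell cells and in 37 of 39 32-cell cells, where CPM ran from 0 over a median of 694 to 2726. Pooled Spp1 was 206-fold higher (3.67 and 758 CPM). Msn (chromosome X, 96096042 to 96168552, plus strand) encodes moesin, a linker between actin and the membrane, and was at 1.96 CPM (95% interval 1.53 to 2.47) and 332 CPM (327 to 337). Dsg2, a desmosomal cadherin gene, had no count at the 8-cell stage and was at least 1700-fold higher, with counts in 38 of 39 cells. Lgals1, the galectin 1 gene, had counts in all 39 32-cell cells, from 13.6 over a median of 68.7 to 1154 CPM, against at most 7.90 CPM in an 8-cell cell. Its pooled value was 334 CPM in the run 63 to 86 and 146.5 CPM in the later run. Col4a1, a collagen chain of basement membranes, went from 3.48 to 90.4 CPM. Gjb5 (0.708 and 125 CPM), a connexin gene of trophoblast, and Tinagl1 (no count, then 105.9 CPM), a matrix protein gene, were also switched on and are named for their known roles, after their values were seen.

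Others act in metabolism and redox balance. Glrx encodes glutaredoxin, which reduces protein disulphides with glutathione. No 8-cell cell had a count, and all 39 32-cell cells did, from 108.6 over a median of 341 to 854 CPM, at least 4179-fold higher in the pool. Cat, the catalase gene, went from 2.89 to 175 CPM and had counts in 3 of 30 and 39 of 39 cells. Slc2a1, the glucose transporter GLUT1, went from 4.06 to 197 CPM, or 48.5-fold. Ptges, a prostaglandin E synthase gene, was 487-fold higher at 199 CPM, with counts in 35 of 39 cells. Tpp1, a lysosomal peptidase gene, had no count in 8-cell cells and 188 CPM in 32-cell cells (95% interval 185 to 192). Chmp2b, whose product is part of the membrane-cutting ESCRT machinery, had 1 count over the 8-cell stage and 130 CPM at the 32-cell stage.

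Regulators and genes of less known function made up the rest of the highest. Dppa1, named for its expression in pluripotent cells, had no count at the 8-cell stage and 470 CPM at the 32-cell stage, at least 5759-fold higher, with counts in 38 of 39 cells and a median of 180 CPM. Bmyc, a Myc-related gene, went from 2.34 to 143.7 CPM, and every 32-cell cell (32.3 to 319 CPM) lay above every 8-cell cell (at most 18.8 CPM). Tspan3, a tetraspanin gene, and Fbxo3, a ubiquitin ligase subunit gene, were 71.6-fold and 62.7-fold higher. Of the 55 genes, 16 had no count in the 8-cell stage and 5 had a count in all 39 32-cell cells.

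**Figure D2:**
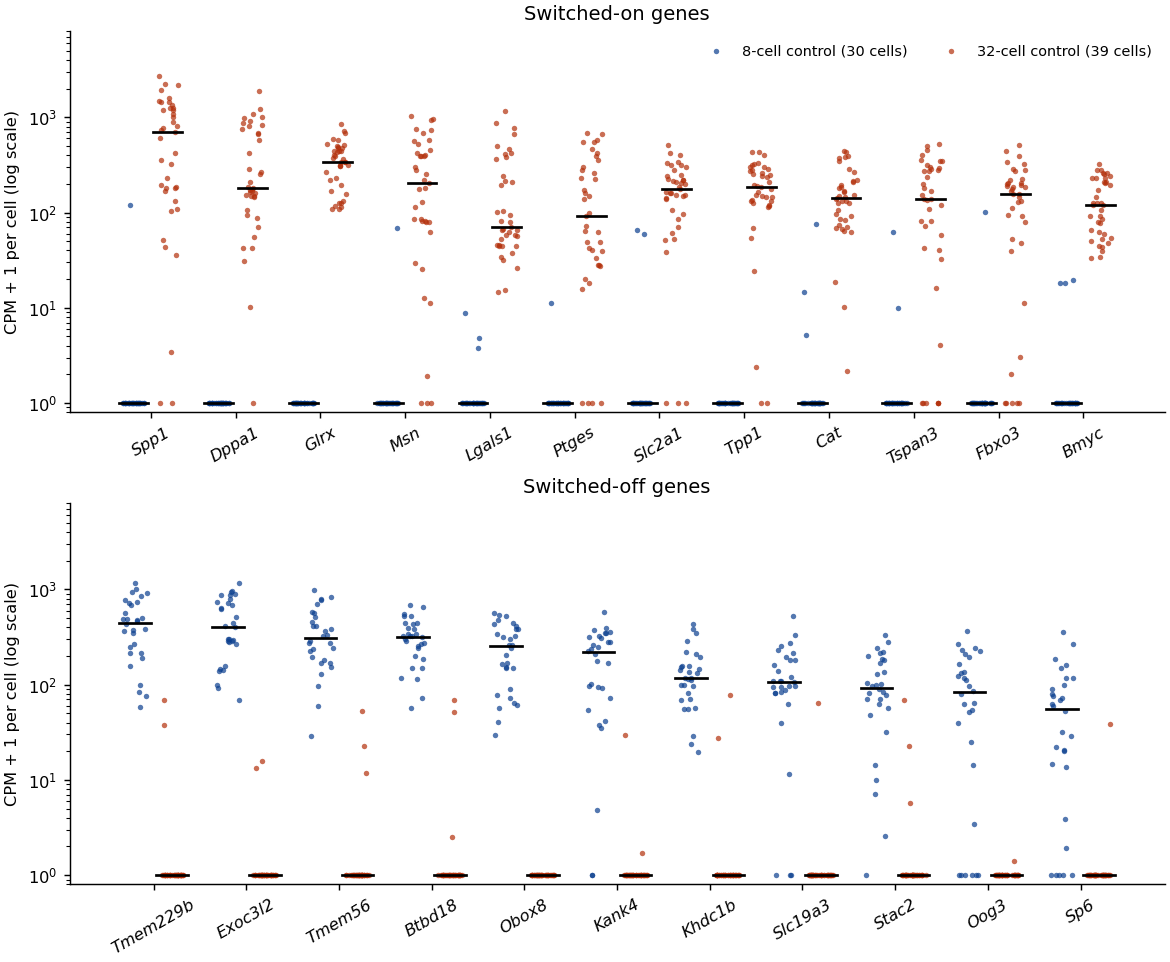
CPM + 1 per cell on a log axis for the 12 switched-on genes (upper panel) and 11 switched-off genes (lower panel) among those with the highest pooled CPM, without genes named only by a number or clone; points are cells, 30 8-cell (blue) and 39 32-cell (red), and bars their medians. In the upper panel the 8-cell medians are all 0 and in the lower panel the 32-cell medians are all 0.

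The switched-off genes with the highest CPM included the following regulators and genes of the germ line. Obox8 (chromosome 7, 14331436 to 14333557, minus strand), a homeobox gene of the egg and early embryo, was at 28.5 to 568 CPM in each of the 30 8-cell cells (median 251) and had no count in any 32-cell cell, at least 5217-fold lower in the pool. Btbd18, which regulates piRNA precursor transcription in the testis, was 78.4-fold lower (320 and 4.08 CPM). Oog3, an oogenesin of the PRAME family, had 107.1 CPM and then 1 count. Khdc1b, a KH domain gene, was 44.6-fold lower (148.1 and 3.32 CPM), and the zinc finger factor Sp6 61.2-fold (84.9 and 1.39 CPM). Reads of Obox, Oog and Khdc1 genes may be shared out between near-identical copies, so the split within these families is uncertain.

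Other switched-off genes act in transport, metabolism and the cortex of the cell. Exoc3l2, related to an exocyst subunit, had 503 CPM (95% interval 496 to 510) and 0.756 CPM (0.547 to 1.02), and every 8-cell cell (68.4 to 1176 CPM) lay above every 32-cell cell (at most 14.8 CPM). Its 8-cell runs differed, at 738 CPM in cells 1 to 14 and 274 CPM in cells 16 to 30. Tmem229b (503 and 4.24 CPM) and Tmem56 (368 and 1.58 CPM), both membrane protein genes, were 119-fold and 233-fold lower. Slc19a3, a thiamine transporter gene, was 132-fold lower (141.1 and 1.07 CPM), Kank4, of a family that links actin and adhesions, 320-fold lower (220 and 0.686 CPM) and Stac2, an adaptor gene, 45.7-fold lower (111.7 and 2.44 CPM). Pfkfb3, a regulator of glycolytic flux, went from 81.3 CPM with counts in 28 of 30 cells to no count, at least 1542-fold lower. Further genes with large differences kept counts in more cells. Hsd17b14, a steroid dehydrogenase gene, was 161.4-fold lower, and Trim43c 137-fold lower (630 and 4.60 CPM), although 36 of 39 32-cell cells had a count of the latter. Obox6 was 247-fold lower, with at least 1268 CPM in each 8-cell and at most 86.3 CPM in each 32-cell cell.

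Promoter sequence was read for the switched genes from RefSeq (GRCm38.p6), from 250 bases before to 50 after the listed start of each gene, to ask which short motifs they hold. A match was found for 50 of the 55 switched-on genes and 6020 of the 7469 genes tested. The binding motif of TEAD factors, GGAATG on either strand, was present in 14% of the switched-on promoters, 11.0% of those of all genes tested and 14.6% of all 27025 promoters in the table. The TATA box TATAAA was in 12%, 6.15% and 14.2%, the E-box CACGTG in 10%, 11.2% and 7.24%, the homeobox motif TAATCC in 8%, 5.70% and 7.16%, and the GC box GGGCGG in 52%, 67.5% and 35.9%. The TEAD, TATA, E-box and TAATCC shares of the switched-on genes lay near that of one of the backgrounds and that of the GC box between them. Only 27 of the 37 switched-off genes had a promoter in the table, under 80%, so the shares of that set are not given. Windows of 30 bases around TEAD matches of 4 switched-on genes, and around a TATA box 29 bases before the start of 1 switched-on and 1 switched-off gene, show where the letters lie. They are written on the strand of the gene with the motif in capitals, and CATTCC is the TEAD motif on the other strand.
Ptges (chr2:30903431-30903460, minus strand, TEAD): gtgggacacctcCATTCCtctgcttcccac
Tinagl1 (chr4:130175254-130175283, minus strand, TEAD): gggaattcctgtCATTCCtgggagctgctg
Sri (chr5:8045868-8045897, plus strand, TEAD): aaatctcaagctGGAATGacttacattgtt
Vipas39 (chr12:87266360-87266389, minus strand, TEAD): ctagtatttctgGGAATGctagtccagaag
Tubb2a (chr13:34078020-34078049, minus strand, TATA): gcggtccccgggTATAAAaggcggtgctgg
Oog3 (chr4:144162663-144162692, minus strand, TATA): agctgaaaattaTATAAAgggtcatagcag
Pooled CPM of these genes went from 0.408 to 199 for Ptges, from no count to 105.9 for Tinagl1, from 1.85 to 129 for Sri, from 0.408 to 67.3 for Vipas39 and from 2.10 to 60.8 for Tubb2a, a tubulin gene. A match in letters does not show that a factor binds there. Sri, Vipas39 and Tubb2a, like Pfkfb3 above, were named after their values were seen.

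Some genes separated the stages cell by cell, with or without a switch. For 34 genes (0.455% of those tested) every 32-cell cell lay above every 8-cell cell, and for 43 (0.576%) every 8-cell cell lay above every 32-cell cell. These counts depend on the number of cells. Those of the higher set include Epcam, an epithelial adhesion gene (0 to 104.5 CPM at the 8-cell and 187 to 2021 CPM at the 32-cell stage), and Tet2, which oxidises methylated cytosine (0 to 175 and 237 to 1706 CPM). Pkm, the pyruvate kinase gene, ran from 0 to 51.6 and from 118.3 to 1497 CPM. Idh3a of the TCA cycle ran from 0 to 131 and from 135 to 1011 CPM. Txn1, the thioredoxin gene, ran from 0 to 55.3 and from 124 to 386 CPM, and the fatty acid desaturase gene Scd1 from 0 to 221 and from 281 to 1348 CPM. The lower set holds Fbxo15, an F-box gene known as a target of Oct4 (856 to 3096 and 61.0 to 623 CPM), and Ctsl, the cathepsin L gene (1265 to 3244 and 44.1 to 681 CPM). It also holds Hand1, a factor of later trophoblast (23.7 to 543 and 0 to 17.1 CPM), and Cited1, a transcriptional co-regulator (151.8 to 633 and 0 to 93.2 CPM).

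Transcription factors that mark the lineages of the blastocyst did not move as a block. Of 21 trophectoderm factors 13 were tested, of which 6 were higher, 3 lower and 4 not called (13.3% higher and 7.31% lower over all genes tested), with a median log2 difference of 0.35 against 0.20 over all genes tested. That median was 2.20 with the filter at 5 CPM, 2.08 with no filter, 0.66 with the 8-cell run 1 to 14 and 0.16 with the run 16 to 30. Elf3, an ETS factor of epithelia, was 61.4-fold higher (7.89 and 485 CPM), with counts in 6 of 30 and 39 of 39 cells. Id2, an inhibitor of bHLH factors, was 19.5-fold higher (20.7 and 403 CPM). Tead4, the partner of YAP that lies upstream of Cdx2, went the other way, from 644 to 79.6 CPM, 8.10-fold lower. Sox15 was 16.5-fold lower (373 and 22.6 CPM) and Hand1 180-fold lower (265 and 1.48 CPM). Klf5 (571 and 441 CPM) and Tfap2c (156.3 and 199 CPM) were not called.

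Of 24 pluripotency and inner cell mass genes 20 were tested, with 4 higher and 3 lower, beside 13.3% and 7.31% of all genes tested. Their median was -0.47, and -0.98 with the 32-cell run 63 to 86 alone. Tfcp2l1, a factor of naive pluripotency, was 21.5-fold higher (83.7 and 1800 CPM). Zfp42, known as Rex1, was just past the call, 4.07-fold higher (77.2 and 314 CPM). Klf17 was 60.5-fold lower (331 and 5.47 CPM) and Klf2 went from 74.7 to 8.70 CPM. Spic (1269 and 459 CPM) and Sall4 (745 and 540 CPM) were not called. Primitive endoderm genes were also split, with 6 of 10 tested higher and 2 lower. Lrp2, the megalin receptor gene, was 43.0-fold higher (16.7 and 718 CPM), and its adaptor gene Dab2 7.402-fold (94.5 and 700 CPM). Pdgfra was at 19.2 and 132 CPM. The factor Gata4 was 47.6-fold lower (46.9 and 0.984 CPM), with counts in 22 of 30 and 2 of 39 cells, and Gata6 was not called (113.1 and 96.9 CPM).

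Keratins and genes of cell junctions were read next, beside 13.3% higher and 7.31% lower of all genes tested. Of 9 keratin and desmosome genes tested, 6 were higher and 0 lower, with a median log2 difference of 4.59, which was 1.85 with no filter on low values. Krt8 (chromosome 15, 101996698 to 102004482, minus strand) and Krt18 (chromosome 15, 102028180 to 102032027, plus strand) encode the keratins that pair in simple epithelia. Krt8 was 24.6-fold higher (50.9 and 1250 CPM) and Krt18 26.5-fold (47.6 and 1262 CPM). The 8-cell value of Krt18 was 19.2 CPM in cells 1 to 14, 81.8 CPM in cells 16 to 30 and 13.2 CPM in the 7 cells that had Y-linked counts above Xist. Krt8 varied from 213 to 2873 CPM among 32-cell cells and Krt18 from 138 to 3085 CPM, and summed over the list from 910 to 6998 CPM. Dsp, the desmoplakin gene, went from 4.14 to 154.4 CPM. The tight junction list had 2 of 14 genes higher and 0 lower, with a median of 0.22. Cldn4, F11r and Cxadr were not called.

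Among 17 genes of compaction, adhesion and polarity, 6 were higher and 0 lower, beside 13.3% higher and 7.31% lower of all genes tested. Epcam was 43.7-fold higher (21.6 and 945 CPM). Ezr, the ezrin gene of the apical membrane, went from 6.29 to 130 CPM, and Prkcz, an atypical protein kinase C, from 11.0 to 73.8 CPM. Cdh1, the E-cadherin gene, was at 170 and 360 CPM and was not called. Of 23 actin cytoskeleton genes 7 were higher and 0 lower. Lcp1, an actin-bundling plastin gene, was 61.8-fold higher (5.50 and 340 CPM), Capg, a capping protein gene, went from 4.90 to 103.1 CPM, and Cnn3 of the calponins from 101.2 to 774 CPM. Actb fell just outside the call at a log2 difference of 1.97.

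In the matrix and integrin list 5 of 13 genes were higher and 1 lower (all genes tested, 13.3% and 7.31%). Beside Spp1 these include Fn1, the fibronectin gene, at 9.58 and 170 CPM. The lower gene was the integrin subunit Itgav, at 105.4 and 20.2 CPM, and it differed between the 32-cell runs (6.23 and 41.1 CPM). Of 11 annexins, galectins and S100 genes 6 were higher and 2 lower. Anxa2 went from 46.7 to 463 CPM and Anxa6 from 5.74 to 158.6 CPM. In the list of ion transport and water channels 1 of 7 was higher and 3 were lower. Atp1b1, the beta subunit of the sodium pump, was 24.6-fold higher (8.96 and 220 CPM). Its 8-cell value was 5.28 CPM in cells 1 to 14, 10.6 CPM in cells 16 to 30 and 0.460 CPM in the 7 cells that had Y-linked counts above Xist. Slc12a2, a sodium, potassium and chloride co-transporter, was 13.3-fold lower (929 and 69.99 CPM), and the aquaporin genes Aqp9 and Aqp11 went from 374 to 52.5 CPM and from 65.3 to 1.02 CPM.

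**Figure D3:**
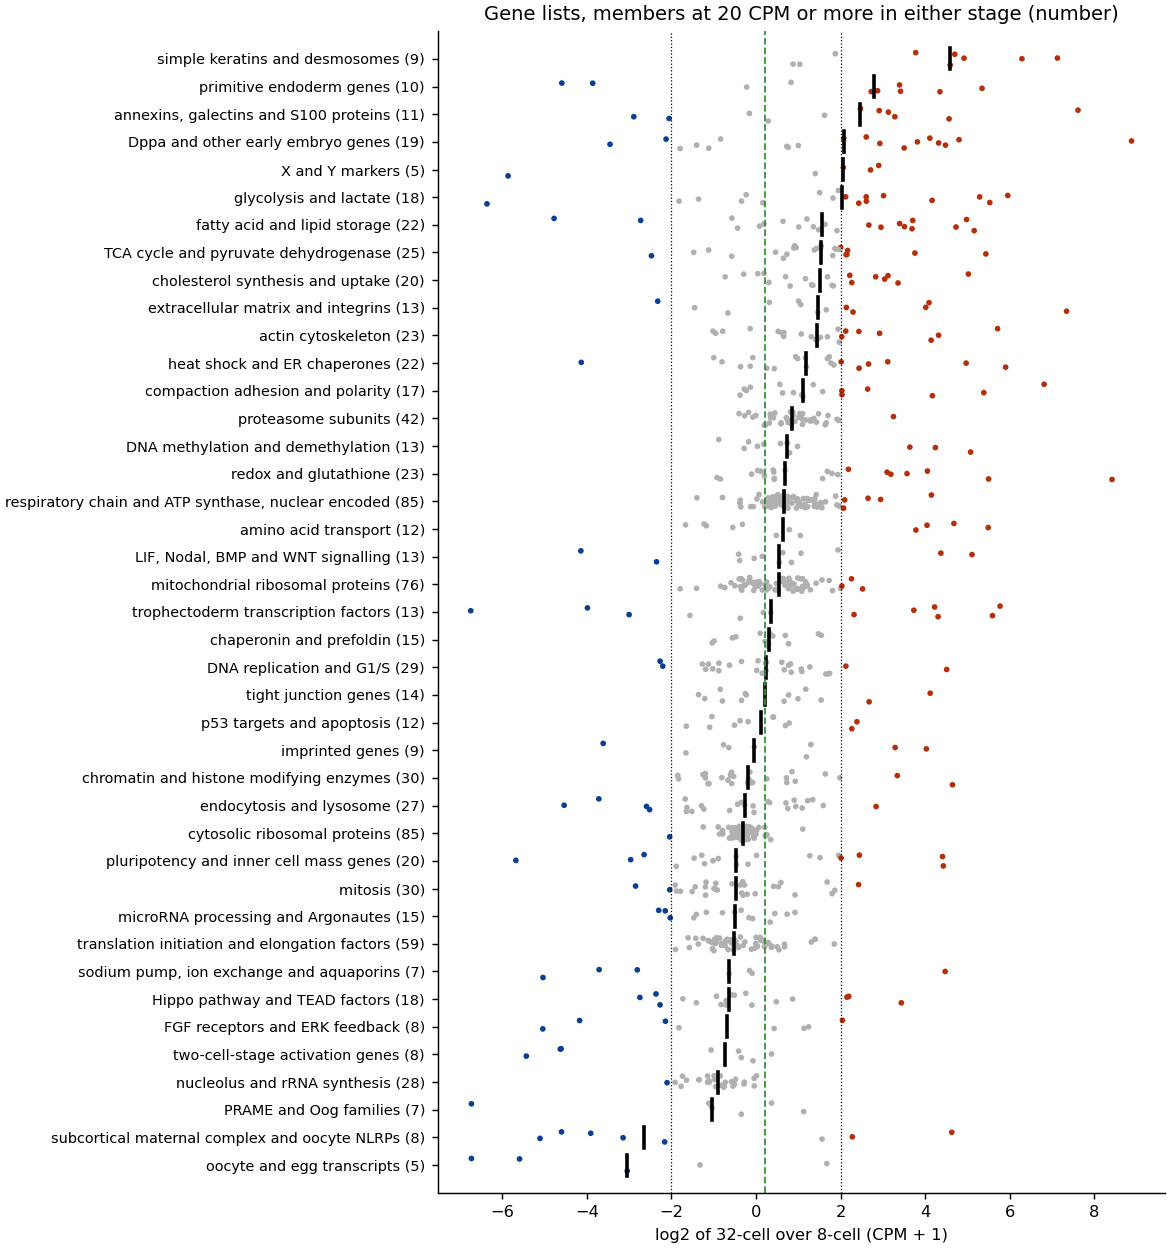
Log2 difference of each tested member (points) of each gene list with at least 5 tested members, with the median of the list as a black bar; red and blue points passed the 4-fold call (dotted lines at 2 and -2), the dashed green line is the median of 0.20 over all genes tested, and the number of tested members follows each name. Keratins and desmosomes have the highest median (4.59) and oocyte and egg transcripts the lowest (-3.05) at this filter; with no filter these medians are 1.85 and -1.88.

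Transcripts of the egg and of the cleavage stages were split between lower and uncalled genes, with a few higher, where 7.31% of all genes tested were lower and 13.3% higher. Of 41 oocyte and egg genes only 5 passed the filter, 3 of them lower. Their median log2 difference of -3.05 was -5.59 with the filter at 50 CPM and -1.54 with the 32-cell run 63 to 86 alone. The summed CPM of this list ran from 4648 to 7460 in 8-cell cells and from 1154 to 4137 in 32-cell cells, and most of it came from Dppa3 (5725 and 2286 CPM pooled). Bpgm, counted in this list, was at 21.8 and 1.76 CPM. Of 4 Obox-list genes tested 2 were lower and 1 higher. The homeobox gene Crxos was not called (826 and 915 CPM), and Otx2 had 1 count at the 8-cell stage and 23.6 CPM at the 32-cell stage. Of 18 genes of the subcortical maternal complex and the oocyte NLRPs 8 were tested, with 5 lower and 2 higher, and 10 did not reach the filter. The tested gene that was not called was Khdc3 of the complex, at a log2 difference of 1.56. The summed CPM of all members of this list was 449.1 and 595.1. Padi6, needed for the egg's cytoplasmic lattices, went from 56.8 to 2.85 CPM. Nlrp4c was 27.3-fold higher (9.39 and 256 CPM) and Nlrp4f was at 11.0 and 57.4 CPM, though reads of the Nlrp4 genes may be shared between copies. Of 8 tested genes of the 2-cell-stage wave 3 were lower, among them Sp110 (119 and 3.92 CPM) and Tdpoz4, at 42.2 CPM and then without a count.

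Of 19 Dppa and other early embryo genes 10 were higher and 2 lower, beside 13.3% higher and 7.31% lower of all genes tested, while the summed CPM of the list was 14843 and 11289. Fabp3, a fatty acid binding protein gene, went from 15.7 to 332 CPM and Tat, a tyrosine aminotransferase gene, was also called higher. Dppa5a was not called (950 and 1615 CPM). Of 7 PRAME and Oog genes 1 was lower, and the median of -1.04 turned to 0.50 with only the 7 8-cell cells that had Y-linked counts above Xist and to 0.42 with the 8-cell run 1 to 14.

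Fuel use and lipid genes were among the lists with the most calls. Of 18 glycolysis and lactate genes tested 9 were higher and 1, Pfkfb3, lower, against 13.3% higher and 7.31% lower of all genes tested. Their median was 2.03, against 0.20. Pkm was 68.8-fold higher (8.90 and 612 CPM) and Aldoa, the aldolase gene, 4.36-fold (309 and 1345 CPM). The glucose transporter gene Slc2a3 was 6.13-fold higher (170.8 and 1047 CPM). Gapdh was at 3.38 and 201 CPM, and as it has many processed copies in the genome, its level depends on how shared reads were assigned. Hk2, which commits glucose to the cell, was not called (99.4 and 353 CPM). Of 25 TCA cycle and pyruvate dehydrogenase genes 6 were higher and 1 lower. Mdh1 was 55.7-fold higher (3.40 and 189 CPM) and Idh3a went from 35.1 to 487 CPM. The lower gene was Mpc2, a subunit of the mitochondrial pyruvate carrier (219 and 38.7 CPM).

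Of 22 fatty acid and lipid storage genes 9 were higher and 2 lower, where 13.3% and 7.31% of all genes tested were. Scd2 was 38.1-fold higher (14.5 and 552 CPM) and Scd1 13.3-fold (47.4 and 631 CPM). Plin2, which coats lipid droplets, was 11.6-fold higher (55.5 and 642 CPM), and Acly, which makes cytosolic acetyl-CoA, went from 123 to 789 CPM. Acsl4, a long-chain acyl-CoA synthetase gene, was lower (661 and 99.0 CPM). Of 20 cholesterol genes 7 were higher and 0 lower. Srebf2, the main transcription factor of the pathway, was 47.7-fold higher (2.07 and 98.6 CPM). Of 12 amino acid transport genes 4 were higher and 0 lower. Slc38a4 went from 17.3 to 300.4 CPM, and Slc6a14 from 1.91 to 130 CPM with counts in 21 of 39 cells. Of 23 redox genes 7 were higher and 0 lower. Txn1 was 12.5-fold higher (18.5 and 230 CPM), and Gstp1, a glutathione transferase gene, went from 4.11 to 83.9 CPM.

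Large sets of housekeeping genes were read against the same shares of all genes tested, 13.3% higher and 7.31% lower. Of 85 cytosolic ribosomal protein genes 1, Rpl41 (1112 and 269 CPM), was lower and 0 were higher, with a median of -0.32. Translation factors had no call among 59 tested genes and a median of -0.52. The 28 nucleolar and rRNA synthesis genes had 1 lower, Ddx21 (525 and 121 CPM), and 0 higher, with a median of -0.90. Of them 11 were at least 2-fold lower, as were 1500 of all 7469 genes tested. Npm1 was at 3539 and 1971 CPM. In contrast, the median was 0.86 over 42 proteasome subunits, 0.67 over 85 nuclear genes of the respiratory chain and ATP synthase and 0.54 over 76 mitochondrial ribosomal proteins. Of these, 1, 5 and 3 were higher and 0 lower. At least 2-fold higher were 18, 28 and 19 of them, as were 2240 of all 7469 genes tested. Psme2, a subunit of the proteasome activator, went from 3.59 to 42.7 CPM and Cox15 of the respiratory chain from 25.7 to 205 CPM. Of 22 chaperones 6 were higher and 1 lower. Xbp1, the factor of the unfolded protein response, went from 4.44 to 169.2 CPM, and Hsp90b1 of the endoplasmic reticulum from 120 to 762 CPM. The lysosome list had 1 of 27 higher and 4 lower, among them Ctsz (703 and 52.5 CPM) and Lamp2 (1608 and 266 CPM). Lamp2 is X-linked. Hexa, a lysosomal hexosaminidase gene, was higher (60.4 and 438 CPM).

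Of 30 mitosis genes 2 were lower and 1 higher, against 7.31% and 13.3% of all genes tested, with a median of -0.47. Ccna2 went from 1330 to 322 CPM, and Ccnb1, at 2658 and 721 CPM, fell just outside the call although every 8-cell cell lay above every 32-cell cell. Bub1b, a spindle checkpoint kinase gene, was higher (50.4 and 275 CPM). Of 29 replication and G1/S genes 2 were higher and 2 lower. Ccne1, the cyclin E1 gene, was at 519 and 106.8 CPM, and Cdkn1b, the inhibitor p27, went from 0.354 to 29.8 CPM. Of 13 DNA methylation and demethylation genes 3 were higher and 0 lower. Tet2 was 12.6-fold higher (57.5 and 727 CPM), and Uhrf1, which guides maintenance methylation, 20.3-fold (13.0 and 263 CPM). Tdg, a glycosylase that removes oxidised cytosine, had no count at the 8-cell stage and 32.7 CPM at the 32-cell stage, at least 400.1-fold higher. Of 30 chromatin enzymes 2 were higher, Hdac3 (9.58 and 106.2 CPM) and Kmt2a (1.17 and 53.3 CPM), and 0 lower. Of 15 microRNA processing genes 3 were lower and 0 higher. Ago4 went from 91.9 to 17.8 CPM, and Ago2 (302 and 213 CPM) and Dicer1 (124 and 44.0 CPM) were not called. Of 9 imprinted genes 2 were higher and 1 lower, the higher ones being Mest (2.23 and 51.7 CPM) and Meg3 (2.20 and 30.3 CPM). Of 12 p53 target and apoptosis genes 2 were higher, Ccng1 (64.9 and 316 CPM) and Pmaip1 (26.2 and 141.4 CPM), and 0 lower, beside 13.3% higher and 7.31% lower of all genes tested.

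Signalling genes were called in both directions, with shares of higher genes near the 13.3% of all genes tested. The shares of lower genes lay above the 7.31% of all genes tested, though on 2 or 3 genes per list. Of 18 Hippo and TEAD genes 3 were higher and 3 lower, without Tead4, which was lower and was counted with the trophectoderm factors above. Mob1b, a cofactor of the LATS kinases, went from 191 to 27.6 CPM, the kinase gene Lats1 from 44.0 to 7.73 CPM, and the upstream kinase gene Stk3 from 5.55 to 69.9 CPM. Yap1 was not called (155.1 and 102.9 CPM). Of 8 FGF and ERK feedback genes tested 1 was higher and 3 lower. Fgf3 had 32.0 CPM and then no count, and Spry4, an inhibitor of the pathway, was at 20.8 and 0.211 CPM, while Spry2 was not called (342 and 812 CPM). In the list of LIF, Nodal, BMP and WNT signalling 2 of 13 were higher and 2 lower. Stat3, which transmits the LIF signal, was 22.2-fold higher (13.3 and 295 CPM), and Socs3, an inhibitor of the same route, 20.3-fold lower (130 and 6.40 CPM). Wnt7b had no count at the 8-cell and 33.5 CPM at the 32-cell stage, and Id3, a BMP target, was lower (263 and 50.6 CPM).

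Sums over lists in single cells separated the stages in 10 of 45 lists, 7 with the 32-cell and 3 with the 8-cell stage above. Every 32-cell cell lay above every 8-cell cell for compaction and polarity (1044 to 2599 and 3230 to 6530 CPM), for actin (4400 to 8217 and 11609 to 30209 CPM) and for glycolysis (855 to 2353 and 2696 to 8778 CPM). The same held for proteasome subunits (9235 to 13761 and 17338 to 24916 CPM), redox genes, the TCA cycle and, narrowly, the respiratory chain (8174 to 12948 and 12986 to 23330 CPM). Every 8-cell cell lay above every 32-cell cell for nucleolar genes (12281 to 18028 and 6215 to 10734 CPM), Obox genes (2164 to 4335 and 415 to 1662 CPM) and egg transcripts. The sum of ribosomal protein genes overlapped, from 22489 to 38405 CPM at the 8-cell and from 18906 to 38731 CPM at the 32-cell stage. The actin sum holds Actb, and no sum says how many genes moved.

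**Figure D4:**
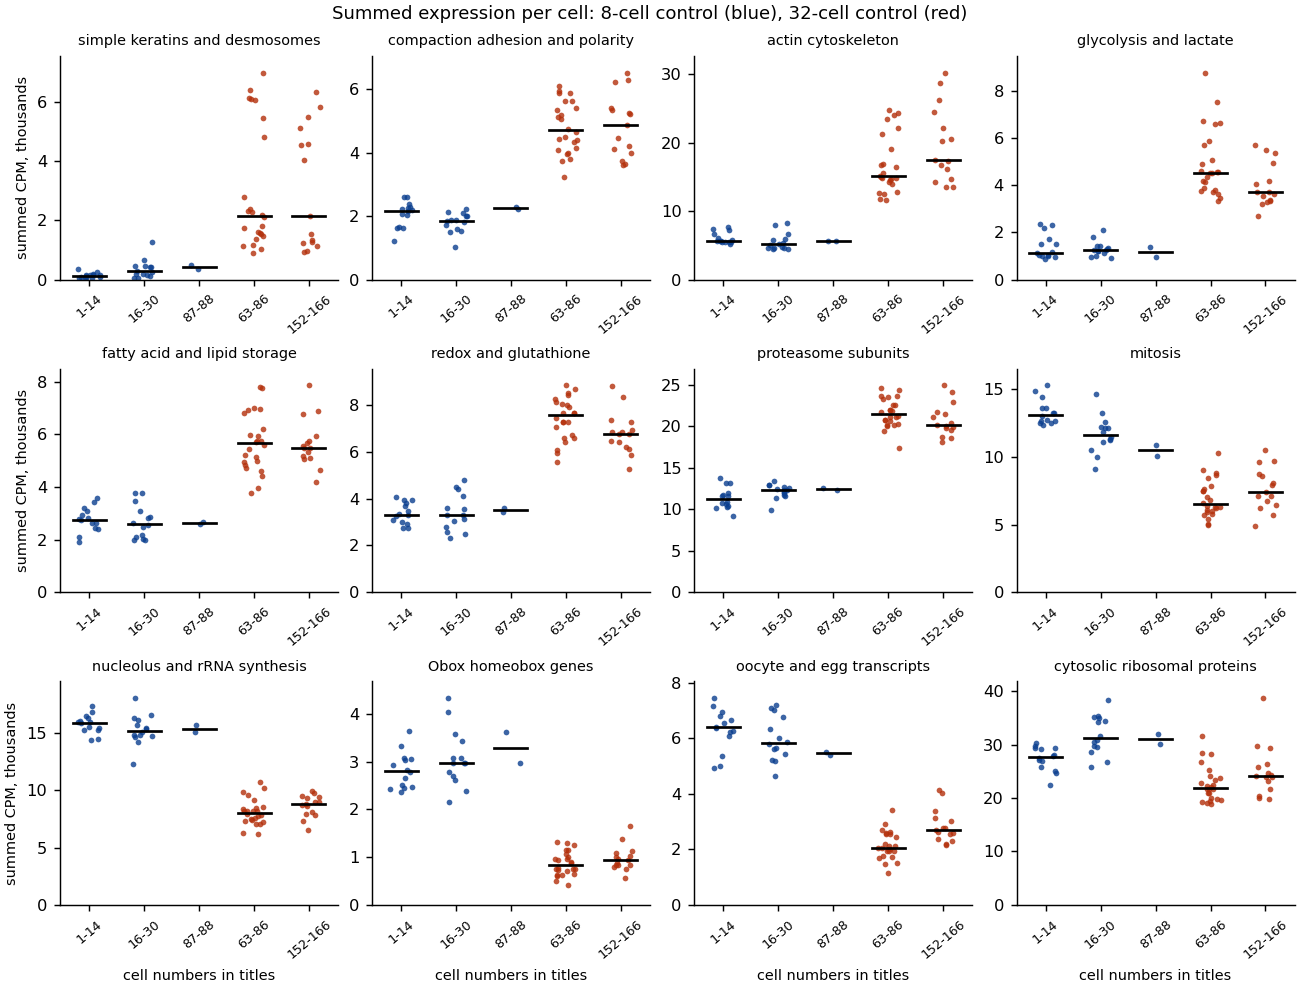
Summed CPM of all measured members of 12 gene lists in each cell, by run of cell numbers, 8-cell control in blue and 32-cell control in red; points are cells and bars run medians. Nucleolar and Obox sums are higher in each 8-cell cell, proteasome and glycolysis sums in each 32-cell cell, and keratin sums spread from 910 to 6998 CPM among 32-cell cells.

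Genes on the X chromosome were read apart because the stages differed in Xist. Xist itself was at 380 CPM in 8-cell and 5.55 CPM in 32-cell cells, and with only the 7 8-cell cells that had Y-linked counts above Xist its log2 difference turned from -5.86 to 0.46. Of 223 X-linked genes tested 12.6% were higher and 14.3% lower, with a median of -0.31, against 13.3%, 7.05% and 0.21 for 7178 autosomal genes. The part of Xist in this was not tested. With only those 7 8-cell cells, 54 of the 55 switched-on and 36 of the 37 switched-off genes were still called, but only 37 and 31 of them still met the limits on the share of cells. Under those 7 cells 72 genes were switched on and 55 off. Msn and Tbl1x were the 2 switched-on genes on the X chromosome, and no switched-off gene lay there.

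Of markers of other cell types, 1 of granulosa cells and none of blood, oviduct or sperm reached the filter. Of 11 granulosa and cumulus markers 1, Amhr2, was tested, at 105.6 and 5.75 CPM with counts in 27 of 30 and 13 of 39 cells, and 6 had no count in either stage. The summed list had a median of 103.8 CPM and ran from 0 to 339 CPM per 8-cell cell and from 0 to 30.4 CPM per 32-cell cell. The blood and oviduct sum had a median of 3.94 CPM and reached 121.8 CPM in an 8-cell cell, and was 15.4 CPM in the pooled 8-cell and 1.97 CPM in the pooled 32-cell cells. The sperm sum was at most 10.4 CPM in a cell.

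The same stage comparison was then read in the embryos given the miR-381-3p mimic, whose cells are separate from the control cells. There 7594 genes were tested, with 1043 higher (13.7%) and 515 lower (6.78%). Of the 55 genes switched on in control embryos 55 had the same sign and 48 were called higher, with a median log2 difference of 5.55 in control and 4.61 in mimic-treated embryos. Of the 37 switched-off genes 35 had the same sign and 29 were called lower (medians -5.17 and -4.44). As the genes were chosen in control embryos, the smaller medians with the mimic are no measure of its effect. Among all called genes, 543 of 996 higher and 285 of 546 lower were called in the same direction. Dppa1 (no count and 324 CPM), Obox8 (123 CPM and no count) and Spp1 (2.36 and 386 CPM) behaved alike there. Hormad1, a gene of meiotic chromosome axes, did not, at 31.8 CPM and 1 count in control and 26.04 and 49.8 CPM in mimic-treated embryos. Tbl1x was at 0.953 and 126 CPM in control and 38.3 and 114.2 CPM with the mimic. Both were named after their values were seen. None of the 39 32-cell mimic cells and 8 of the 24 8-cell mimic cells had Y-linked counts above Xist, so that the stages, and the treatments, differ in this as well.

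**Figure D5:**
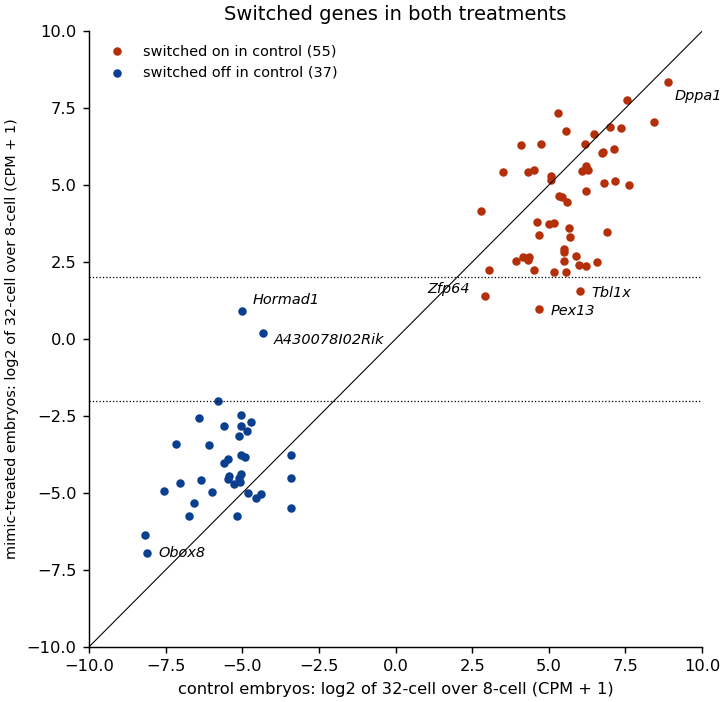
Log2 difference between the stages in control embryos (horizontal) and in mimic-treated embryos (vertical) for the 55 switched-on (red) and 37 switched-off (blue) genes; the line marks equal values and the dotted lines the 4-fold call. All 55 red points lie above 0 and 35 of 37 blue points below 0 on the vertical axis, the exceptions being Hormad1 and A430078I02Rik.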

How the data were processed

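The authors deposited 1 table of expected counts, without any normalisation, that holds 32245 genes in 132 cells. Per the labels and the study's methods, reads were aligned to mm10 with STAR (2.5.1b) and quantified with RSEM (1.3.0), and cells with at least 3000 genes and under 10% mitochondrial counts were kept, which all cells met. RSEM divides a read that fits several genes among them, so levels of near-identical copies are uncertain. Mitochondrial genes (13) were dropped here, counts of the cells of a stage were summed and divided by their total to give CPM, and log2 differences were taken of CPM + 1. Python (3.11.15), pandas (2.3.3) and scipy (1.17.1) were used. No count model was run, since each stage is 1 sample. Cells were neither clustered nor named, and no doublet caller was used. Coordinates are those of GENCODE M21 (mm10), whose symbols could be matched for 7411 of the 7469 genes.

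Genes named are the 12 switched genes per direction with the highest CPM, the 8 largest called differences per direction (both without symbols made of a clone name or number), up to 6 called and 3 uncalled members per list with the highest CPM, the 10 highest genes per stage and the stage markers. Others are said to be named after their values were seen. Some genes that this rule names are not reported here. The cells, gene lists (45), thresholds and rules were chosen with earlier results of these data known. Alternatives tried were other scaling, pseudocounts, filters, call limits, thinning to 500000 counts, single runs of cells, cells with Y-linked counts above Xist, and X and Y genes left out.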

Additional observations from a re-analysis of the deposited data

How the results depend on the processing

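Each stage stands for 1 sample of 3 to 5 embryos, so no error between embryos could be given, and dose, the cells' Xist and Y-linked counts and title runs go with the stage or embryo. With the CPM filter at 5, 1558 genes were higher and 1047 lower (median absolute log2 change 1.093), and without a filter 1728 and 1252 (0.7976). With the filter at 50 these were 593 and 332 (0.9746), 0.4114% of genes tested were switched off and 90.48% of those were called lower in mimic-treated embryos. A 2-fold call gave 2240 higher and 1500 lower, and an 8-fold call 473 and 263. Pseudocounts of 0.1 and 5 CPM gave a median absolute log2 change of 1.019 and 0.9180. With limits of 20% and 50% of cells, 4.418% of genes tested were switched on, 68.48% of them called higher in mimic-treated embryos, and 2.115% were switched off.

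With only the 7 8-cell cells that had Y-linked counts above Xist, the median absolute log2 change was 1.140. Every 32-cell cell then lay above every 8-cell cell for 0.9983% of genes tested and below for 1.852%, with fewer cells to overlap, and 75% of switched-on and 60% of switched-off genes were called with the mimic. The PRAME and Oog median became 0.4956 and the log2 difference of Xist 0.4588. With the 8-cell run 1 to 14 alone these were 1.051, 0.7959%, 0.9683% and, for PRAME and Oog, 0.4190. With the run 16 to 30 alone the median absolute log2 change was 1.031, and every 8-cell cell lay above for 0.9506% of genes. With the 32-cell run 63 to 86 alone it was 1.032, with 0.7734% of genes switched off, and with the later run 1.018, with 0.7391% of genes in which every 32-cell cell lay above. Beyond the number of cells, the cause of these shifts was not tested. A change of filter cannot move the log2 difference of a gene, and a smaller pseudocount can only enlarge its size. Of 194 named genes past the 4-fold limit, 140 stayed past it under all 15 alternatives, these among them. Among the 54 that did not are Ago4, Aldoa, Bpgm, Ccna2, Ccne1, Ddx21, Eomes, Id3, Itgav, Lats1, Nlrp4f, Pdgfra, Pmaip1, Rpl41, Slc2a3, Xist and Zfp42. Over the same alternatives the median of tight junction genes ran from -0.01 to 0.72, of mitosis genes from -0.74 to -0.27 and of glycolysis genes from 1.42 to 2.25. Median-ratio scaling took a log2 shift of 0.040 from the 32-cell CPM before the pseudocount was added. No paired analysis was possible because replicate numbers name single cells and the results come from no test.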
